A study of Mus musculus with 8 samples.

Results

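The lysosomal genes described here are Cd68, Lamp1, Lamp2, Cd63, Ctsb, Ctsd, Ctsl, Fuca1, Grn and Hexa, 10 of the 19694 genes and other features tested in the series. All non-control probes that the array files name for these genes were taken, 14 of 55681 probes. The genes were proposed with the difference between GFP-positive and GFP-negative cells already known, so that difference is given for them as a description. Which of them passed the threshold of the fit over all features is stated below, but that is not a test of these genes. The cells were MAM326, a line named in a study of mouse mammary cancer stem cells, grown in DMEM with fetal bovine serum. They were separated by fluorescence-activated cell sorting, 2 days after plating, into GFP-positive cells and GFP-negative cells. Per the labels there were 4 independent experiments at different passages, with 4 one-colour arrays for GFP-positive cells and 4 for GFP-negative cells, each made from Cy3-labelled cRNA of 20 ng of total RNA. Both groups come from the same line, no allele or agent is labelled as differing between them, and the sources used here do not say what makes some cells GFP-positive. The labels also do not say which arrays share a passage, so every p-value refers to the spread between these 8 arrays, and this number limits the precision.

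Lysosomes are acidic organelles in which hydrolases break down proteins, glycans and lipids that arrive by endocytosis and autophagy. Heavily glycosylated membrane proteins such as LAMP-1 and LAMP-2 line the inner face of the membrane, and a proton pump, the V-ATPase, acidifies the lumen. Many lysosomal genes can be switched on together by the transcription factors TFEB and TFE3, and cancer cells often show altered levels or secretion of cathepsins.

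Levels are log2 of the background-corrected intensity relative to the 75th percentile of the same array, so 0 is that percentile and probes are compared only with themselves. Between 25112 and 31970 probes per array (45.1% to 57.4%) were well above background, and 0 spots were saturated. All 14 probes passed a filter on dim signal, which requires 4 or more arrays with a signal well above background, and the brightest one stood for its gene. Positions are those of the probes on mm9. Over all features, 503 of 19694 (2.55%) passed an adjusted p of 0.05 in limma, 357 of them higher (1.81%) and 146 lower (0.741%) in GFP-positive cells. The split was 181 higher and 21 lower with arrays scaled to their median, 421 and 361 with normexp background correction, 535 and 629 when the prior was robust and followed intensity, and 672 and 772 with array weights, so the balance turned in the last pair of fits. The count was 422 without GFP-positive replicate 2 and 150 to 318 without any other single array, lowest without GFP-positive replicate 1. Of the 10 genes, 3 passed it with a higher level (Cd68, Ctsd and Fuca1) and 0 with a lower one. The groups did not overlap for the same 3 genes, against 16.7% of all features (5.06% higher and 11.6% lower). Without adjustment, 23.0% of features had a p under 0.05 (7.83% higher and 15.1% lower). Since the genes were chosen on this contrast, nothing is read from these counts. The signs were split, 5 positive and 5 negative, with a median difference of 0.09 for the 10 genes against -0.06 for all features. With quantile normalization 9 were positive and 1 negative, as Lamp1, Lamp2, Ctsb and Ctsl turned sign.

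**Figure D1:**
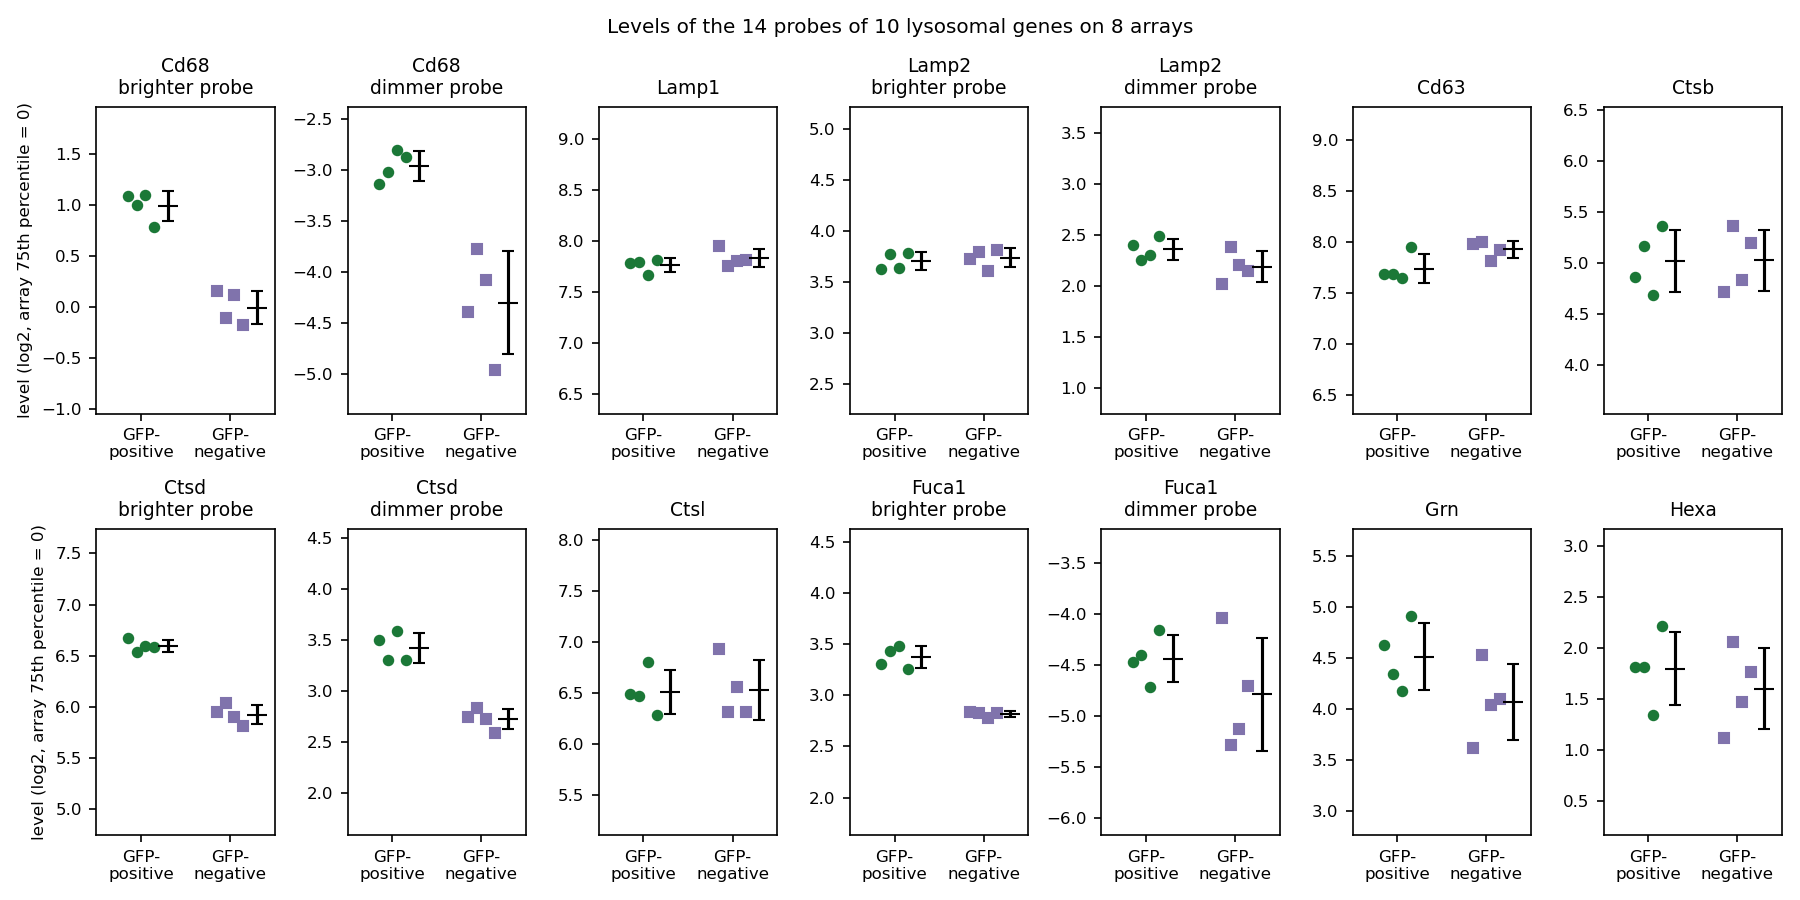
Level of each of the 14 probes on each array (log2, array 75th percentile = 0), with GFP-positive arrays as green circles and GFP-negative arrays as purple squares in order of replicate number, and the mean ± SD of 4 arrays beside them. Every panel spans the same log2 range; the groups are apart for both probes of Cd68 and of Ctsd and for the brighter probe of Fuca1, and overlap for the other 9 probes.

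Among the membrane proteins, Cd68 stood at a higher level in GFP-positive cells, while Lamp1, Lamp2 and Cd63 had overlapping groups. Cd68 encodes macrosialin, a glycoprotein of the LAMP family in late endosomes and lysosomes that is most abundant in macrophages. It was read by 2 probes on the minus strand of chromosome 11, at chr11:69477775-69477834 and, further upstream in the transcript, at chr11:69478979-69479038. The first 30 of each probe's 60 bases, as the array files give them, are shown so that the 2 readings of the gene can be traced.
Cd68 brighter probe: gcctcatctcttcaccatgccactgactca
Cd68 dimmer probe: ccgaatcctatacccaattcagggtggaag
The brighter probe was at 1.09, 0.99, 1.09 and 0.78 on GFP-positive arrays 1 to 4, against 0.15, -0.11, 0.11 and -0.18 on GFP-negative arrays 1 to 4. The lowest GFP-positive array therefore lay above every GFP-negative one. The means were 0.99 ± 0.15 and -0.0087 ± 0.16 (SD, n = 4 each), a difference of 1.00 ± 0.11 (SE) or 2.00-fold. Set side by side by replicate number, the differences were 0.94, 1.11, 0.98 and 0.96. The dimmer probe was at -3.14, -3.02, -2.81 and -2.87 on the GFP-positive arrays and at -4.39, -3.78, -4.08 and -4.96 on the GFP-negative arrays, where it was well above background on 3 of 4. Its groups also did not overlap, and it differed by 1.34 ± 0.24. In a bulk sample, a larger share of cells with Cd68 mRNA and more Cd68 mRNA per cell cannot be told apart.

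Lamp1, one of the most abundant glycoproteins of the lysosomal membrane, had overlapping groups. Its probe at chr8:13175277-13175336 gave 7.78, 7.80, 7.67 and 7.81 in GFP-positive cells and 7.95, 7.75, 7.81 and 7.81 in GFP-negative cells. The arrays interleave, and the difference was -0.07 ± 0.07. Lamp2, whose splice forms share the luminal part and differ in the membrane anchor and tail, was read by 2 probes annotated to different transcripts of the gene, on the minus strand of the X chromosome.
The brighter one, at chrX:35772774-35772833, was at 3.63, 3.77, 3.64 and 3.79 in GFP-positive and 3.72, 3.80, 3.61 and 3.82 in GFP-negative cells, a difference of -0.03 ± 0.08. The dimmer one, at chrX:35777505-35777564, was at 2.40, 2.26, 2.31 and 2.49 in GFP-positive and 2.02, 2.39, 2.20 and 2.15 in GFP-negative cells, a difference of 0.17 ± 0.10. The signs of the 2 probes differed, and the groups overlapped for both. Cd63, a tetraspanin of late endosomes, lysosomes and secreted vesicles, was at 7.69, 7.68, 7.65 and 7.95 in GFP-positive and 7.98, 7.998, 7.81 and 7.92 in GFP-negative cells (chr10:128349813-128349872). Replicate 4 alone of the GFP-positive arrays reached the GFP-negative range, and the difference was -0.19 ± 0.09, the lowest of the 10 genes.

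Of the 3 cathepsins, Ctsd was higher in GFP-positive cells on every array and Ctsb and Ctsl were not. Ctsd encodes cathepsin D, the main aspartic protease of lysosomes. It had a probe at chr7:149561962-149562021 and another that spans chr7:149566847-149568505, longer than the probe itself, so that it crosses an intron. Both lie on the minus strand.
Ctsd brighter probe: gaaggagcaagaggacagaagcaaaactat
Ctsd dimmer probe: actgtatcggttccatgtaagtctgaccag
The brighter probe was at 6.67, 6.53, 6.59 and 6.58 in GFP-positive cells, against 5.94, 6.03, 5.90 and 5.81 in GFP-negative cells. The gap between the groups was wider than the range within either of them. The difference was 0.67 ± 0.07 or 1.60-fold. The probe across the intron was at 3.50, 3.30, 3.59 and 3.30 in GFP-positive and 2.75, 2.84, 2.73 and 2.59 in GFP-negative cells, again without overlap, with a difference of 0.70 ± 0.10.

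Ctsb and Ctsl encode cysteine cathepsins. Ctsb was at 4.86, 5.17, 4.69 and 5.37 in GFP-positive and 4.72, 5.36, 4.83 and 5.20 in GFP-negative cells (chr14:63761906-63761965), with a difference of -0.0068 ± 0.19. Ctsl was at 6.49, 6.47, 6.80 and 6.29 in GFP-positive and 6.93, 6.32, 6.55 and 6.31 in GFP-negative cells (chr13:64465287-64465346), with a difference of -0.015 ± 0.17. The arrays of both genes were spread within the groups: in each group the arrays numbered 2 and 4 were the higher ones for Ctsb, and those numbered 1 and 3 were the higher ones for Ctsl.

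**Figure D2:**
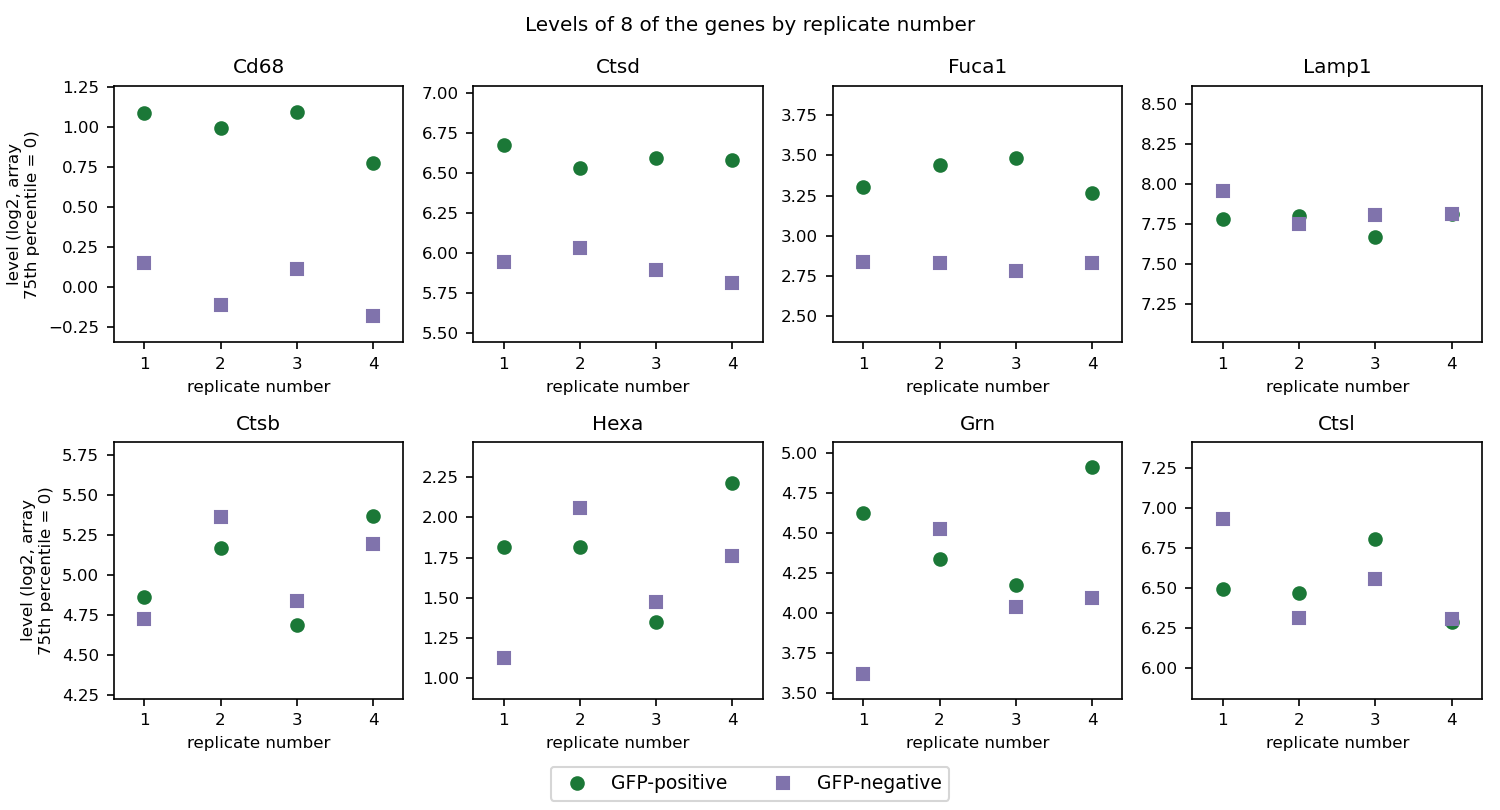
Level of 8 of the 10 genes (brightest probe, log2, array 75th percentile = 0) against replicate number, with GFP-positive arrays as circles and GFP-negative arrays as squares. Cd68, Ctsd and Fuca1 were higher in GFP-positive cells at each of the 4 numbers, whereas the groups of Lamp1, Ctsb, Hexa, Grn and Ctsl overlapped.

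Of the glycosidases, Fuca1 was higher in GFP-positive cells and Hexa was not separated. Fuca1 encodes the alpha-L-fucosidase that trims fucose from glycoproteins and glycolipids. Its brighter probe, at chr4:135492847-135492906 on the plus strand, begins as follows, and so does its dimmer one at chr4:135496156-135496215.
Fuca1 brighter probe: taaaaacgcaactgtttacgccactttcct
Fuca1 dimmer probe: atttctaccacaagcatgtgataggtttct
The brighter probe was at 3.31, 3.44, 3.49 and 3.26 in GFP-positive cells and at 2.83, 2.83, 2.78 and 2.83 in GFP-negative cells. The groups stood apart, with means of 3.37 ± 0.11 and 2.82 ± 0.025 (SD, n = 4 each), a difference of 0.55 ± 0.07 or 1.47-fold. The dimmer probe was well above background on 3 GFP-positive and 2 GFP-negative arrays. It was at -4.47, -4.40, -4.72 and -4.16 in GFP-positive and -4.04, -5.29, -5.12 and -4.70 in GFP-negative cells, so the groups overlapped, with a difference of 0.35 ± 0.27. In the fit of all 27591 kept probes, 552 (2.00%) passed the threshold in limma, 420 of them higher (1.52%) and 132 lower, and 5 of the 14 probes were among these, both of Cd68, both of Ctsd and the brighter one of Fuca1. That split was 216 higher and 25 lower with median scaling, 510 and 386 with normexp, 646 and 702 with the robust prior and 872 and 968 with array weights.

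Hexa encodes the alpha subunit of beta-hexosaminidase A, which degrades GM2 ganglioside. It was at 1.81, 1.81, 1.35 and 2.22 in GFP-positive and 1.12, 2.06, 1.47 and 1.76 in GFP-negative cells (chr9:59411712-59411771), a difference of 0.19 ± 0.24. Gm2a, the activator that presents GM2 to the enzyme, differed by 0.56 ± 0.32 (adjusted p = 0.338, limma), with 0.67 ± 0.33 for its further kept probe. The groups overlapped for both genes.

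Grn encodes progranulin, a secreted glycoprotein that is also carried to lysosomes and cleaved there into granulins. It was at 4.63, 4.34, 4.17 and 4.91 in GFP-positive and 3.62, 4.53, 4.04 and 4.10 in GFP-negative cells (chr11:102297692-102297751). The highest GFP-negative array exceeded 2 of the GFP-positive ones, and the difference was 0.44 ± 0.22. Sortilin and prosaposin bring progranulin to lysosomes. Sort1 differed by -0.05 ± 0.11 (adjusted p = 0.806, limma), with -0.06 and 0.25 for its further kept probes, and Psap by 0.31 ± 0.07 (adjusted p = 0.0593, limma). The groups of Psap did not overlap. Tmem106b, a lysosomal membrane protein known as a modifier of human progranulin deficiency, differed by 0.23 ± 0.11 (adjusted p = 0.249, limma). Its further kept probes differed by 0.32 ± 0.07 and 0.19 ± 0.09 (adjusted p = 0.0595 and 0.272, limma, over probes).

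The 8 arrays lay on 1 slide in 2 rows, with GFP-positive replicates 1 and 3 and GFP-negative replicates 2 and 4 in row 1, and the other 4 arrays in row 2. Within rows 1 and 2, Cd68 differed by 1.24 and 0.76, Ctsd by 0.71 and 0.64, and Fuca1 by 0.57 and 0.54. Grn and Hexa differed less evenly, Grn by 0.09 and 0.80 and Hexa by -0.33 and 0.72. Ctsb differed by -0.50 and 0.49, and Ctsl by 0.34 and -0.37. Lamp1 differed by -0.06 and -0.08, Lamp2 by -0.17 and 0.11 and Cd63 by -0.29 and -0.08. The sign thus differed between the rows for Hexa, Ctsb, Ctsl and Lamp2. In each row GFP-positive arrays of one pair of numbers, 1 and 3 or 2 and 4, are set against GFP-negative arrays of the other pair, so any difference between the pairs of numbers enters the rows with opposite signs. Over both groups, arrays 2 and 4 averaged 5.27 against 4.78 for arrays 1 and 3 for Ctsb, 6.34 against 6.70 for Ctsl, and 1.96 against 1.44 for Hexa. Number and slide column coincide and cannot be told apart. With arrays scaled to their median, which moved the median of all features to -0.18, against -0.06 with the 75th percentile, the differences were 0.87 for Cd68, 0.55 for Ctsd and 0.43 for Fuca1.

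**Figure D3:**
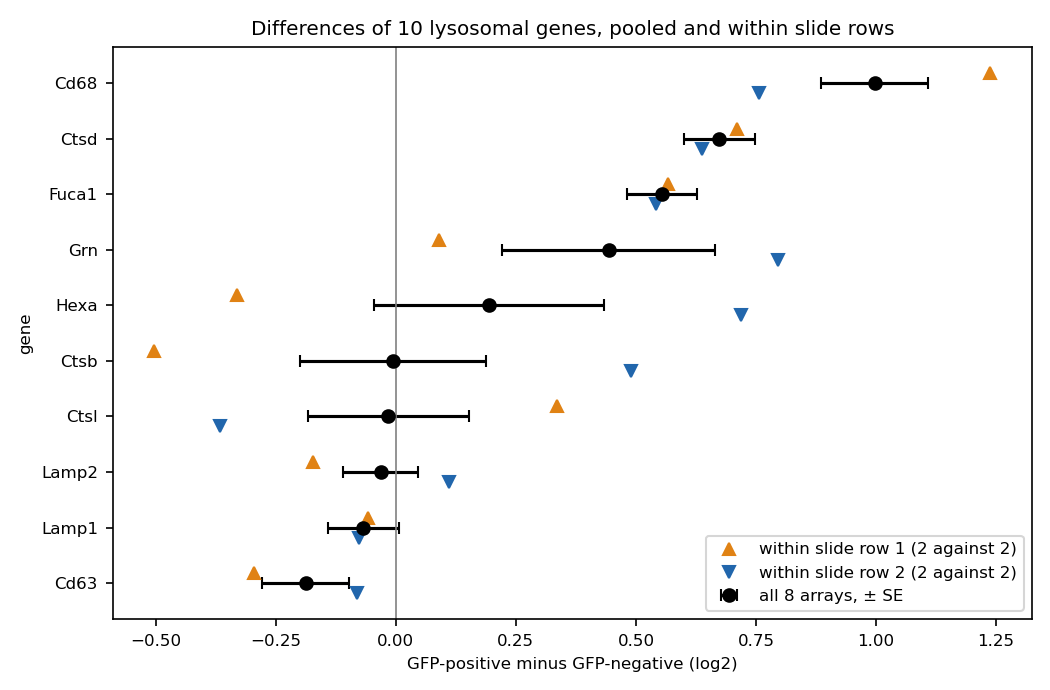
GFP-positive minus GFP-negative difference (log2) of each of the 10 genes, with black points and bars for all 8 arrays ± SE and triangles for the difference within slide row 1 (upward) and row 2 (downward), 2 arrays against 2. The Ctsd and Fuca1 triangles lie close to the pooled point, and those of Hexa, Ctsb and Ctsl lie on opposite sides of 0.

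A known binding motif of TFEB and TFE3 was looked up in promoters from RefSeq (GRCm38.p6), 250 bases before to 50 bases after each gene start, for the 9 of the 10 genes with an entry. The 8 letters TCACGTGA of the motif's centre contain its 6-letter core CACGTG, and each reads the same on both strands. The 8 letters stood in Ctsd and in 304 of 27025 genes in all (1.12%). The core stood 4 times in Lamp1, 2 times in Ctsd and 1 time in Ctsl, and in 2187 genes in all (8.09%). Cd68, Lamp2, Cd63, Fuca1, Grn and Hexa held none of these letters in that window. A stretch of Lamp1 with all its 4 matches and a stretch of Ctsd with its 8-letter match are shown, with matches in capitals. That of Lamp1 is chr8:13159091-13159160 on the plus strand, ending 1 base before the gene start, and that of Ctsd is chr7:142387888-142387957 on the minus strand, 130 to 61 bases before the start.
Lamp1 promoter: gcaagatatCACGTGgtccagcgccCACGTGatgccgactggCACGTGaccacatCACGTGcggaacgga
Ctsd promoter: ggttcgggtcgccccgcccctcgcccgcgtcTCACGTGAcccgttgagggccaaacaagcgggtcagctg
Of the genes with a core match, Ctsd differed by 0.67, Lamp1 by -0.07 and Ctsl by -0.015. Of those without one, Cd68, Fuca1, Grn and Hexa differed by 1.00, 0.55, 0.44 and 0.19, and Lamp2 and Cd63 by -0.03 and -0.19. A match is a description of the letters, occupancy was not measured, and a link between matches and differences was not tested.

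Beyond the 10 genes, 8 lists of other lysosomal genes were read from the fit of all features. The lists were chosen from known roles with earlier results of these data known, so their counts are a description. Of 195 listed genes 180 were measured, that is, had a probe that passed the filter on dim signal, with a median difference of 0.01. Of these, 10 passed the threshold (5.56%, against 2.55% of all features), 9 higher and 1 lower in GFP-positive cells. Without adjustment 42 had a p under 0.05, 30 higher and 12 lower, against 23.0% of all features (7.83% higher and 15.1% lower). The groups did not overlap for 27 higher and 5 lower, against 5.06% and 11.6% of all features. The number past the adjusted threshold was 5 without GFP-positive replicate 1 or without GFP-negative replicates 3 or 4, 6 without GFP-positive replicates 3 or 4 or GFP-negative replicates 1 or 2, and 7 without GFP-positive replicate 2. With median scaling 3 passed, beside 202 of all 19694 features. Within slide rows 1 and 2 the counts were 9 and 0 in limma, beside 1046 and 0 of all features. At an unadjusted p under 0.05 they were 42 and 27, beside 5111 and 2149 of all features.

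Most of the listed genes past the threshold were other hydrolases and their activators, of which 6 of 48 measured rose and 0 fell (12.5%, against 2.55% of all features). Unadjusted, 11 were higher and 2 lower below 0.05, against 7.83% and 15.1% of all features, and the median was 0.04. Ctsf, a cysteine cathepsin, was at -0.98, -1.43, -1.49 and -1.01 in GFP-positive cells and at -3.61, -3.65, -3.15 and -3.92 in GFP-negative cells (chr19:4860454-4860513). It rose 5.11-fold (2.35 ± 0.19, adjusted p = 0.00102, limma), with a difference of 1.41 under normexp background correction, and 2.55 and 2.16 within rows 1 and 2. Hyal1, a hyaluronidase, was at 0.20, -0.45, -0.0068 and 0.019 in GFP-positive and -2.03, -1.83, -1.82 and -2.33 in GFP-negative cells (chr9:107481893-107481952). It rose 3.84-fold (1.94 ± 0.17, adjusted p = 0.00126, limma), with a difference of 1.48 under normexp background correction, and 2.18 and 1.71 within the rows. For both genes the groups lay further apart than for any of the 10. Aga, which cleaves the sugar-asparagine link of glycoproteins, rose by 0.78 ± 0.07 (adjusted p = 0.00163, limma), and by 0.65 with median scaling, where it did not pass (adjusted p from 0.000849 to 0.325 over 20 alternatives).

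Tpp1, a tripeptidyl peptidase, rose by 0.54 ± 0.09 (adjusted p = 0.0302, limma). Man2b1, the lysosomal alpha-mannosidase, and Siae, a sialic acid esterase, were named after their values were seen, and rose by 0.49 ± 0.09 and 0.54 ± 0.11 (adjusted p = 0.0311 and 0.0462, limma). Of the 8 fits that leave out 1 array, Tpp1 passed in 2, which lacked replicate 2 of either GFP-positive or GFP-negative cells. Man2b1 passed in 1, without GFP-positive replicate 3, and Siae in 1, without GFP-positive replicate 2. Without GFP-positive replicate 1 the adjusted p was 0.118 for Tpp1, 0.102 for Man2b1 and 0.151 for Siae in limma, and over all 20 alternatives it reached 0.401, 0.382 and 0.448. Lgmn, a cysteine protease that processes cathepsins, differed by -0.07 ± 0.11 (adjusted p = 0.729, limma).

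Of 24 other lysosomal membrane proteins 0 passed the threshold in limma, against 2.55% of all features. Unadjusted, 4 were higher and 1 lower, against 7.83% and 15.1% of all features. The median was 0.12, with 17 positive and 7 negative signs, against 60.7% negative signs over all features. The lowest p-values were those of Ostm1, a chloride channel subunit (0.33 ± 0.07, adjusted p = 0.0594, limma), and Laptm4b (0.28 ± 0.07, adjusted p = 0.0713, limma). The other kept probe of Ostm1 had the opposite sign, with -0.22. Scarb2, the receptor that carries glucocerebrosidase, differed by 0.21 ± 0.10 (adjusted p = 0.278, limma). Of 21 V-ATPase subunits 0 passed in limma. Unadjusted, 6 of them were higher and 1 lower, against 7.83% and 15.1% of all features. Their median was 0.11, with 12 positive and 9 negative signs. Atp6v1a and Atp6v1e1, subunits of the catalytic sector, differed by 0.24 ± 0.06 and 0.33 ± 0.09 (adjusted p = 0.0824 and 0.0908, limma).

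Of 24 genes for sorting and delivery 0 passed in limma (1 higher and 4 lower unadjusted, against 7.83% and 15.1% of all features). The signs of 18 were negative and the median was -0.09, against 60.7% negative signs and a median of -0.06 over all features. Vps41, a tether for fusion with lysosomes, differed by 0.32 ± 0.08 and Gga3, an adaptor for mannose 6-phosphate receptors, by -0.27 ± 0.08 (adjusted p = 0.0745 and 0.102, limma). The receptors themselves, M6pr and Igf2r, differed by -0.12 ± 0.14 and 0.05 ± 0.15. Of 19 regulators of lysosome biogenesis and of mTORC1 at the lysosome 0 passed in limma. Unadjusted, 1 was higher and 1 lower, against 7.83% and 15.1% of all features. Their median was -0.03, with 7 positive and 12 negative signs. Tfeb, Tfe3 and Mitf differed by -0.04 ± 0.09, -0.12 ± 0.10 and -0.09 ± 0.21 (adjusted p from 0.496 to 0.837, limma). Fnip1 and Fnip2, partners of folliculin, were at 0.31 ± 0.12 and -0.29 ± 0.09. Of 18 autophagy genes 0 passed in limma (2 higher and 1 lower unadjusted, against 7.83% and 15.1% of all features). Their median was 0.08, with 11 positive and 7 negative signs. The cargo receptor Sqstm1 differed by 0.27 ± 0.07 and Wipi1 by 0.28 ± 0.11. Wipi1 had 2 further kept probes, and in the fit of probes 1 of them passed, with 0.42 ± 0.07 (adjusted p = 0.0371, limma), and the other differed by 0.30 ± 0.11 (adjusted p = 0.185, limma).

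Among inhibitors of cathepsins, Cst6, cystatin E/M, was at 1.99, 1.79, 2.12 and 1.69 in GFP-positive and 1.05, 0.78, 0.83 and 0.72 in GFP-negative cells (chr19:5347982-5348041). It rose 2.07-fold (1.05 ± 0.12, adjusted p = 0.00452, limma), by 1.30 and 0.80 within the rows. The other 4 of 5 measured cystatins did not pass, so 20% of the list did, against 2.55% of all features. Unadjusted, 3 of the 5 were higher and 0 lower, against 7.83% and 15.1% of all features. Cst3 and Cstb differed by -0.07 ± 0.18 and 0.20 ± 0.15, and Stfa2 and Stfa3 by 0.98 ± 0.41 and 2.14 ± 0.47 (adjusted p = 0.204 and 0.0575, limma). Stefin A genes are near-identical copies, and cross-detection between their probes was not tested. Of 21 other tetraspanins, the family of Cd63, 2 rose and 1 fell (14.3%, against 2.55% of all features), with a median of 0.00. Unadjusted, 2 were higher and 2 lower, against 7.83% and 15.1% of all features. Cd81 rose by 0.81 ± 0.11 (adjusted p = 0.00896, limma), by 0.65 and 0.98 within the rows, and by 0.69 with median scaling, where it did not pass. Tspan7 rose by 0.83 ± 0.16 and Tspan15 fell by 0.50 ± 0.10 (adjusted p = 0.0378 and 0.0490, limma), and neither passed without any 1 of the 8 arrays (adjusted p up to 0.106 and 0.157, each without GFP-positive replicate 1). The other kept probe of Tspan15 differed by -0.63 ± 0.19 (adjusted p = 0.117, limma, over probes).

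**Figure D4:**
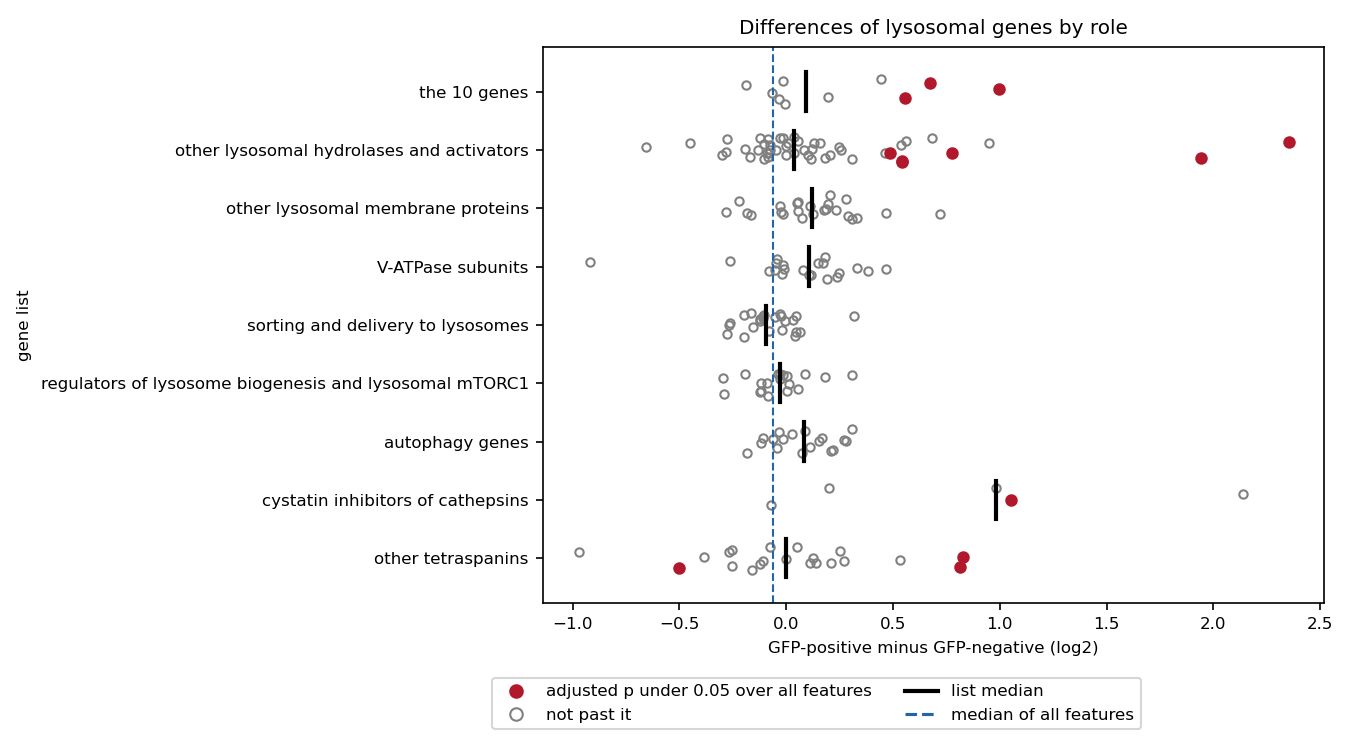
GFP-positive minus GFP-negative difference (log2) of each measured gene of the 10 genes and of 8 lists of other lysosomal genes, with filled red points for an adjusted p under 0.05 over all features, black bars for list medians and a dashed line for the median of all features (-0.06). Ctsf and Hyal1 stand at 2.35 and 1.94, and the sorting, V-ATPase, membrane, regulator and autophagy lists hold no filled point.

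Because Cd68 is abundant in macrophages, markers of other cell types were read on the same arrays. Of 24 macrophage and leukocyte markers 7 were measured and 13 were not well above background on any array. Their mean level ran from -0.88 to -0.67 on GFP-positive and from -1.10 to -0.87 on GFP-negative arrays, and the median difference was 0.28. Of the 6 defining markers, Spi1 was well above background on 0 of 8 arrays and Ptprc and Adgre1 on 1 each. Csf1r, Itgam and Aif1 were well above it on all 8 and differed by 0.29 ± 0.36, 0.03 ± 0.11 and 0.39 ± 0.22, none past the threshold. Cd14, also a marker of mammary luminal progenitors, was the 1 marker that passed (0.56 ± 0.11, adjusted p = 0.0499, limma), and it did not pass without any 1 of the 8 arrays (adjusted p from 0.0656 to 0.135, the highest without GFP-positive replicate 1). That 1 of the 7 measured markers is 14.3%, against 2.55% of all features. Lyz2, Tyrobp, Laptm5 and Cd53 had probes on the array but did not pass the filter on dim signal. As a check of the labelled mammary line, all 6 epithelial markers were well above background on the 8 arrays, with positive signs. In limma 0 of them passed the threshold (2 higher unadjusted, against 7.83% of all features). Of 7 measured fibroblast markers 6 had negative signs (median -1.75) and 0 passed in limma (1 lower unadjusted, against 15.1% of all features). Their mean level ran from -2.07 to 0.89 on GFP-positive and from -0.41 to 1.94 on GFP-negative arrays. The part of these cell types in the differences of lysosomal genes was not tested.

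The features whose profile over the 8 arrays was most like that of Cd68 were ranked by the root mean square distance of centred log2 levels. Centring took out each feature's own mean but kept the group difference, on which Cd68 was chosen. Closeness to the difference of Cd68 therefore enters the order, which is a description, and shared regulation was not tested. Cst6 was nearest at 0.085. The other 4 of the nearest 5 were 2 features of chromosome 1 with no gene symbol, probed at chr1:163528671-163528730 and chr1:163527817-163527876 (distances 0.085 and 0.092), Exoc4, a subunit of the exocyst (0.095), and Cryab, a small heat shock protein (0.11). Of the 2 features of chromosome 1, the shorter lies within the annotated span of the longer, so they are not separate places in the genome. Further probes of the longer one differed by 0.88 to 1.26 against 1.05, and that of the shorter one by 0.77 against 1.01. Cryab had a further probe that differed by 0.78, close to its 0.80, while the further probe of Exoc4 differed by 0.40 against 1.05. Among the 10 genes Ctsd was the 97th feature in this order, at 0.21, and Fuca1 the 197th, at 0.26. The other 7 lay between 0.50 for Grn and 0.63 for Ctsb.

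Of the 4 measured neighbours of Cd68 on chromosome 11, 0 passed the threshold in limma. Unadjusted, 0 were higher and 2 lower, against 7.83% and 15.1% of all features. Mpdu1 and Sox15 on one side differed by 0.08 ± 0.10 and 0.28 ± 0.40, and Sox15 was well above background on 3 GFP-positive and 1 GFP-negative arrays. Eif4a1 and Senp3 on the other side differed by -0.21 ± 0.08 and -0.26 ± 0.07 (adjusted p = 0.183 and 0.0886, limma).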

How the data were processed

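Each deposited file holds the scanner output of 1 one-colour array; per the file headers it was made by Agilent Feature Extraction 10.7.3.1 with probe positions on mm9. The deposited intensity used was the processed signal, already background-corrected by that program; the mean signal and local background served 1 alternative. The sources used here do not give later steps by the authors. Outlier spots were left out (106 to 186 per array of 59305 non-control spots), log2 signals were set to the array's 75th percentile, and spots of 1 probe were averaged. A probe was kept if well above background on 4 or more arrays (27591 were), and the brightest stood for a gene. Symbols came from RefSeq accessions (27509 of 55681 probes matched) and synonyms. The difference between GFP-positive and GFP-negative cells was fitted in limma 3.58.1 and R 4.3.3 (with data.table version 1.17.8; lmFit and eBayes, two-sided, no replicate block), with Benjamini-Hochberg adjustment over all features and a threshold of 0.05. The fit was tested on simulated data. Errors of differences are standard errors.

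The 10 genes and all lists were chosen with earlier results of these data known. The rule for named genes took all 10, up to 4 genes past the threshold per list by size of difference (otherwise the 2 with the lowest p), 13 partners, the 2 measured neighbours of Cd68 on either side and the 5 features nearest to it in profile. Alternatives were other scalings, background correction, filters, probe choice, variance settings, blocks, slide rows and leaving out each array. A partner gene and a probe sequence that the rule would have given are not reported here.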

Additional observations from a re-analysis of the deposited data

Results flagged for a closer look

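Of 106 groups of 4 arrays examined for a single far array among the named genes, 4 held one, and chance alone gives about 1 in 20. In each, the gap from that array to its nearest neighbour took up most of the group's range. For Cd63 in GFP-positive cells the share was 0.868, with replicate 4 at 7.95 and the others between 7.65 and 7.69. For the brighter Fuca1 probe in GFP-negative cells it was 0.888, with replicate 3 at 2.78 and the others at 2.83, a gap that is small in size. For Psap in GFP-negative cells it was 0.935, with replicate 2 at 4.09 and the others from 3.92 to 3.93. For Lgmn in GFP-positive cells it was 0.877, with replicate 3 at 3.98 and the others from 4.25 to 4.29.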

How the results depend on the processing

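The median difference of the 10 genes was 0.09, from 0.06 to 0.23 when 1 array was left out, 0.52 within slide row 2 and -0.029 with median scaling. Against 503 features past the threshold, 202 passed with median scaling, 782 with normexp, 151 with no filter, 1164 with an intensity trend and robust prior, 1444 with array weights, 277 with slide row as a block, 1046 within row 1 and 0 within row 2 (2149 there at an unadjusted p under 0.05), and 150 to 422 when 1 array was left out. Of probes, 552 passed, against 241, 896, 160, 1348, 1840, 335, 1277 and 0 (2989 unadjusted) in the same order, and 181 to 439 when 1 array was left out. Of other lysosomal genes 10 passed, against 3 with median scaling, 5 with no filter, 19 with the trend, 19 with array weights, 5 with the row block, 0 within row 2 (27 unadjusted) and 5 to 7 when 1 array was left out. With the replicate number as a block 214 features, 220 probes and 5 other lysosomal genes passed. Whether arrays of the same number share a passage was not settled. Deviations from the group means correlated by -0.03, 0.07, 0.02 and 0.19 at numbers 1 to 4. GFP-positive replicates 1 to 4 were most like GFP-negative replicates 3, 4, 1 and 2. Arrays of the same number lay in opposite slide rows, and so did these most alike arrays, so any row difference enters both kinds of pair. With the replicate number as a block the SE narrowed for Ctsb (0.19 to 0.10) and Cd68 (0.11 to 0.08). It widened for Ctsd (0.07 to 0.09) and Fuca1 (0.07 to 0.09). Of the 10 genes Fuca1 lost its call with that block, with no filter and with probes averaged, and Fuca1 and Ctsd lost it with median scaling and within both rows, and Cd68 within row 2. The cause of these shifts was not tested.

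The sign turned for uncalled genes only. Of the 10, Ctsb ran from -0.12 to 0.10 and Ctsl from -0.11 to 0.12 when 1 array was left out. Lamp1 was at 0.089, Lamp2 at 0.053, Ctsb at 0.096 and Ctsl at 0.12 with quantile normalization, Lamp2 at 0.071 with probes averaged, and Ctsl at 0.0053 with normexp and 0.0014 with array weights. Among other genes, with quantile normalization Cst3 was at 0.036 and Lgmn at 0.017, with median scaling Igf2r at -0.075 and Mpdu1 at -0.042, and with probes averaged Sort1 at 0.045. Within row 1 Cstb was at -0.043, M6pr at 0.18 and Igf2r at -0.089. Within row 2 Gm2a was at -0.11, Cst3 at 0.38, Lgmn at 0.0046, Tfe3 at 0.035, Sox15 at -0.24 and Mpdu1 at -0.12. Without 1 array in turn the sign was not stable for Cst3 (-0.16 to 0.066), Lgmn (-0.12 to 0.0015), Tfeb (-0.088 to 0.013), Igf2r (-0.065 to 0.15), Mitf (-0.22 to 0.039), Sort1 (-0.11 to 0.0059) and Sox15 (-0.012 to 0.54). Kept probes could be near background on up to 4 arrays, which limits their precision.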
